A study of Mus musculus with 8 samples.

Results

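Notch signalling passes between touching cells. A ligand of the Jagged or Delta-like family on one cell binds a Notch receptor on the next, ADAM proteases and gamma-secretase cut the receptor, and its freed intracellular part enters the nucleus. There it joins the DNA-binding protein Rbpj and a Mastermind coactivator, and genes of the HES and HEY families of repressors are switched on. In the osteoblast lineage Hes and Hey proteins are known to bind Runx2 and to restrain maturation. The genes described here are 10 of the 55335 in the deposited table, chosen by name: the receptors Notch1, Notch2 and Notch3, the ligands Jag1, Jag2 and Dll1, the nuclear effector Rbpj and the target genes Hes1, Hey1 and Heyl.

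Transcripts were measured in MC3T3-E1, an established mouse line of calvarial pre-osteoblasts. The cells had spent 3 days with TABS, named Trio-Active bone scaffold by the submitters (n = 4 libraries), or with HA, hydroxyapatite doped with Mg2+ (n = 4). Every library came from cells on a scaffold, so a higher value in TABS could equally be a lower value in HA. The labels do not say that the libraries of a group came from separate cultures, and p-values therefore rest on a library-to-library spread that may be only technical.

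Values are FPKM, fragments scaled by transcript length and library size, which allows levels to be compared between genes. They summed to between 304893 and 307263 per TABS library and between 312629 and 317439 per HA library. Rescaling every library to the same sum (TPM) therefore raises TABS values against HA. In each library 11187 to 11357 genes reached 1 FPKM. All 8 osteoblast markers examined (Runx2, Sp7, Col1a1, Alpl, Ibsp, Postn, Sparc and Bglap) reached 1 FPKM in at least 4 libraries. Alpl did so in HA alone, at 1.13 to 1.80 FPKM against 0.373 to 0.518 in TABS. Their summed level was 1413 to 1479 FPKM in TABS and 1854 to 2224 in HA, most of it from Col1a1, Sparc and Postn. The 6 endothelial markers summed to 0.347 to 0.524 FPKM in TABS and 0.286 to 0.334 in HA, with Kdr listed at 0 in every library, and 0 of the 6 reached 1 FPKM in 4 libraries. The 6 markers of smooth muscle and pericytes, Notch3 among them, summed to 11.7 to 12.4 FPKM in TABS and 10.1 to 12.4 in HA, most of it from Cspg4, with Kcnj8 listed at 0 in every library. Of 5 chondrocyte markers, Sox9 (mean 35.7 FPKM over the 8 libraries) and Col2a1 (4.90) reached 1 FPKM in at least 4 libraries. Of 5 markers of macrophages or blood, Cd14 did (7.09). The markers of adipocytes and of skeletal muscle summed to at most 0.084 and 0.464 FPKM per library. In RNA from whole cultures, fewer cells expressing a gene and less RNA per cell cannot be told apart.

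The 10 genes spanned the whole range from well expressed to undetected. Averaged over the 8 libraries, Notch2 stood highest at 23.2 FPKM, followed by Rbpj at 11.7, Notch1 at 5.72 and Jag1 at 3.49. Each of these lay above the next in every library. Notch3 (0.826 FPKM) and Hes1 (0.698 FPKM) came next with overlapping ranges, then Dll1 (0.067 FPKM) and Jag2 (0.027 FPKM), which overlapped as well. Hey1 and Heyl were listed at 0 in all 8 libraries. So were 4986 of the 21899 protein-coding genes in the table. Of 20 genes that every cell uses, such as Actb and Tbp, all 20 were above 0 in every library, the lowest value being 1.59 FPKM. Such genes cannot show whether a 0 for a low gene means absence.

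**Figure D1:**
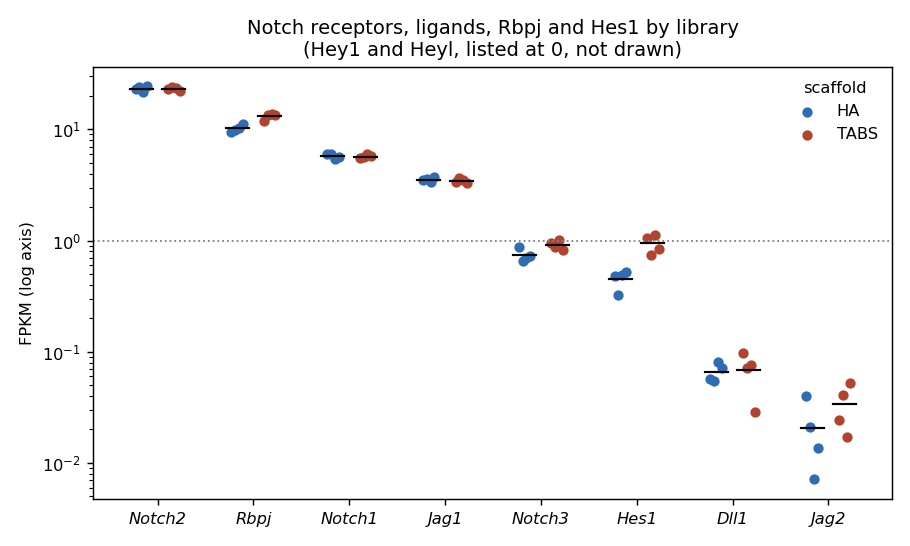
FPKM (log axis) of the 8 genes of the set that were above 0, with each point 1 library, HA in blue and TABS in red, and a bar at each group's mean; the dotted line marks 1 FPKM. The Rbpj and Hes1 points of TABS lie wholly above those of HA, and the points of the other 6 genes overlap.

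TABS and HA were compared gene by gene with limma on log2(FPKM + 1), over the 11280 genes with at least 1 FPKM in at least 4 libraries. Of the 10 genes, 4 passed this filter on low values (Notch1, Notch2, Jag1 and Rbpj), 4 were above 0 but under it (Notch3, Jag2, Dll1 and Hes1) and 2 were at 0. Among the 4, Rbpj rose in TABS, 0 fell and 3 did not pass the threshold of an adjusted p under 0.05. Over all tested genes 7.38% passed, 4.49% higher and 2.9% lower in TABS (506 and 327 genes). That split was 915 and 239 after rescaling to TPM, and 154 and 161 with a GC and length correction and a replicate block. These shares are the background for every count here, and with only 4 genes tested none can be read for the set.

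The receptor genes did not pass the test. Notch2 (ENSMUSG00000027878, GRCm38 chromosome 3, 98013527 to 98150361) encodes the receptor with the highest level here, known in skeletal cells as a regulator of bone remodelling. It measured 22.8, 24.2, 23.4 and 22.4 FPKM in TABS 1 to 4 and 23.1, 23.998, 21.6 and 24.4 FPKM in HA 1 to 4. The TABS values lay inside the range of HA. The log2 fold change (TABS minus HA) was -0.0036 with a 95% interval from -0.11 to 0.11 (limma adjusted p = 0.976). Notch1 (ENSMUSG00000026923, chromosome 2, 26457903 to 26516663), the receptor best known from T cell and vascular development, measured 5.49, 5.61, 5.95 and 5.73 FPKM in TABS and 5.95, 5.98, 5.39 and 5.65 FPKM in HA. Again the groups overlapped, with a log2 fold change of -0.0098 (95% interval -0.11 to 0.09, limma adjusted p = 0.927). The share of Notch1 exon bases that other genes also cover was small, 1068 of 14232 with 0610009E02Rik, which averaged 0.412 FPKM.

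Notch3 (ENSMUSG00000038146, chromosome 17, 32120820 to 32166852), the receptor typical of mural cells of blood vessels, was much lower. It measured 0.955, 0.867, 1.01 and 0.815 FPKM in TABS and 0.872, 0.654, 0.699 and 0.732 FPKM in HA. HA 1 lay within the TABS range and the other 3 HA libraries lay below it. Without the filter its log2 fold change was 0.14 (limma adjusted p = 0.360). Notch4, the fourth receptor and one known from endothelial cells, was taken from a list of other pathway genes. It stood at 0.243, 0.264, 0.239 and 0.222 FPKM in TABS against 0.178, 0.099, 0.140 and 0.149 FPKM in HA. Every TABS value of Notch4 was above every HA value, as in 3.1% of the 4617 genes that were under the filter with a mean of at least 0.1 FPKM. Its log2 fold change without the filter was 0.12 and did not pass (limma adjusted p = 0.0524), except without HA 1 (0.0429). The summed endothelial markers moved the same way, but only Emcn lay wholly above in TABS (0.134 to 0.151 against 0.085 to 0.104 FPKM). Pecam1, Cdh5, Tie1 and Erg overlapped between the groups, and Kdr was at 0. Any relation of these markers to the Notch4 value was not tested.

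Among the ligands Jag1 (ENSMUSG00000027276, chromosome 2, 137081456 to 137116644) was the only gene to reach 1 FPKM. It encodes a membrane-bound ligand of Notch receptors. It measured 3.35, 3.62, 3.53 and 3.28 FPKM in TABS and 3.49, 3.54, 3.37 and 3.77 FPKM in HA. The groups overlapped, with means of 3.44 ± 0.16 and 3.54 ± 0.17 FPKM (SD, n = 4) and a log2 fold change of -0.03 (95% interval -0.14 to 0.08, limma adjusted p = 0.743).

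Dll1 (ENSMUSG00000014773, chromosome 17, 15367354 to 15376872), a Delta-like ligand, lay between 0.029 and 0.097 FPKM in TABS and between 0.055 and 0.080 in HA. Of its 4219 exon bases, 867 are shared with A930024N18Rik, a noncoding gene on the opposite strand for which no value was listed. Jag2 (ENSMUSG00000002799, chromosome 12, 112907819 to 112929776), the second Jagged ligand, lay between 0.017 and 0.052 FPKM in TABS and between 0.0071 and 0.040 in HA. If 1 step in the low values of a library is 1 fragment, such levels stood for 3 to 7 fragments of Dll1 and 1 to 7 of Jag2 per library. A difference between the scaffolds was not detectable at this depth. The other Delta-like ligand genes were at a like level, Dll4 with 0.0075 to 0.113 FPKM over the 8 libraries and Dll3 with at most 0.025.

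Rbpj (ENSMUSG00000039191, chromosome 5, 53466152 to 53657362, plus strand) was the gene of the set that rose. It encodes the DNA-binding protein through which all 4 Notch receptors act, a repressor in the absence of the receptor's intracellular part and an activator with it. It measured 11.97, 13.5, 13.8 and 13.5 FPKM in TABS 1 to 4 and 9.57, 9.96, 10.2 and 11.2 FPKM in HA 1 to 4. All 4 TABS libraries lay above all 4 HA libraries, as they did in 10.8% of tested genes. The reverse order held in 7.15%, and 1 order or the other in 18%. The means were 13.2 ± 0.81 and 10.2 ± 0.70 FPKM (SD, n = 4), 1.29 times higher in TABS. The log2 fold change was 0.34 ± 0.06 SE (95% interval 0.20 to 0.47, limma adjusted p = 0.012).

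The mouse genome holds a processed copy of this transcript, and the copy has a row of its own in the table. Rbpj-ps3 (ENSMUSG00000079575, chromosome 6, 46529354 to 46530794, minus strand) is annotated as a processed pseudogene. All 1441 of its bases aligned to the Rbpj-201 transcript, 1437 of them identical (99.7% identity), and the 4 differences fell within the Rbpj coding sequence. Of its 1292 windows of 150 bases, the read length, 853 (66.0%) occurred unchanged in an Rbpj transcript. The stretch of 90 coding bases with the most differences is shown because it is where reads of the pair could best be told apart. It covers bases 1000 to 1089 of the Rbpj coding sequence and bases 863 to 952 of the copy (GENCODE M21), with capitals at the 2 positions that differ.
Rbpj: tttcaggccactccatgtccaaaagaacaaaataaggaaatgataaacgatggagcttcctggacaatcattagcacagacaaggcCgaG
Rbpj-ps3: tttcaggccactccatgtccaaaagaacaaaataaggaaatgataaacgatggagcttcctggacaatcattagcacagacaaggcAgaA
Rbpj-ps3 measured 7.80, 7.09, 7.42 and 7.18 FPKM in TABS and 4.91, 5.83, 6.62 and 5.65 FPKM in HA. It was also higher in every TABS library than in any HA library (log2 fold change 0.32 ± 0.07 SE, limma adjusted p = 0.0359). No source used here says how the authors' counting divided reads between the pair, so the level of each is uncertain. With both summed by transcript length and tested as 1 gene, an alternative chosen after seeing the data, the log2 fold change was 0.34 (limma adjusted p = 0.00804). The aligned part is 26.4% of the Rbpj-201 transcript. Another relative, Rbpjl, averaged 0.189 FPKM over the 8 libraries.

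**Figure D2:**
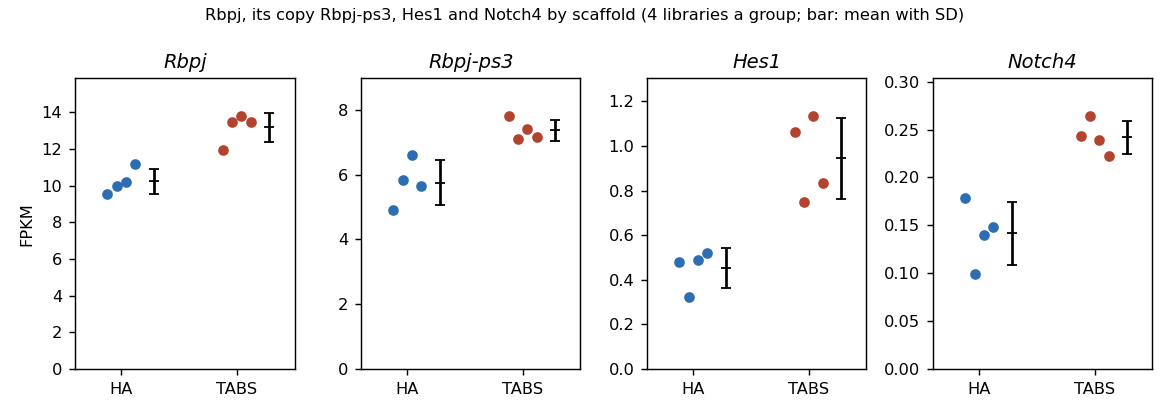
FPKM in each library (points) with the group mean and SD (bars, n = 4) for Rbpj, its processed copy Rbpj-ps3, the target gene Hes1 and the receptor gene Notch4, each on its own axis from 0. In all 4 panels the TABS points (red) lie above the HA points (blue), with means 1.29, 1.28, 2.09 and 1.71 times as high.

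Over 30 alternatives the log2 fold change of Rbpj ran from 0.31 to 0.40, and its call was kept in 23 and lost in 7. With the filter on low values it was kept without any single library (limma adjusted p up to 0.0413, without TABS 3). All 7 losses were in fits without the filter. With all 28201 genes above 0 tested and 1 library left out, its adjusted p passed 0.05 without TABS 2, TABS 3, TABS 4, HA 1, HA 2 or HA 3 (up to 0.108). In those 6 fits between 0.844% and 1.46% of all genes passed, against 1.92% with no library left out. Without TABS 1 or HA 4, where the call was kept, the shares were 0.865% and 1.33%. The other loss was with no filter and the replicate block (0.122), where 0 of the 28201 genes passed.

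**Figure D3:**
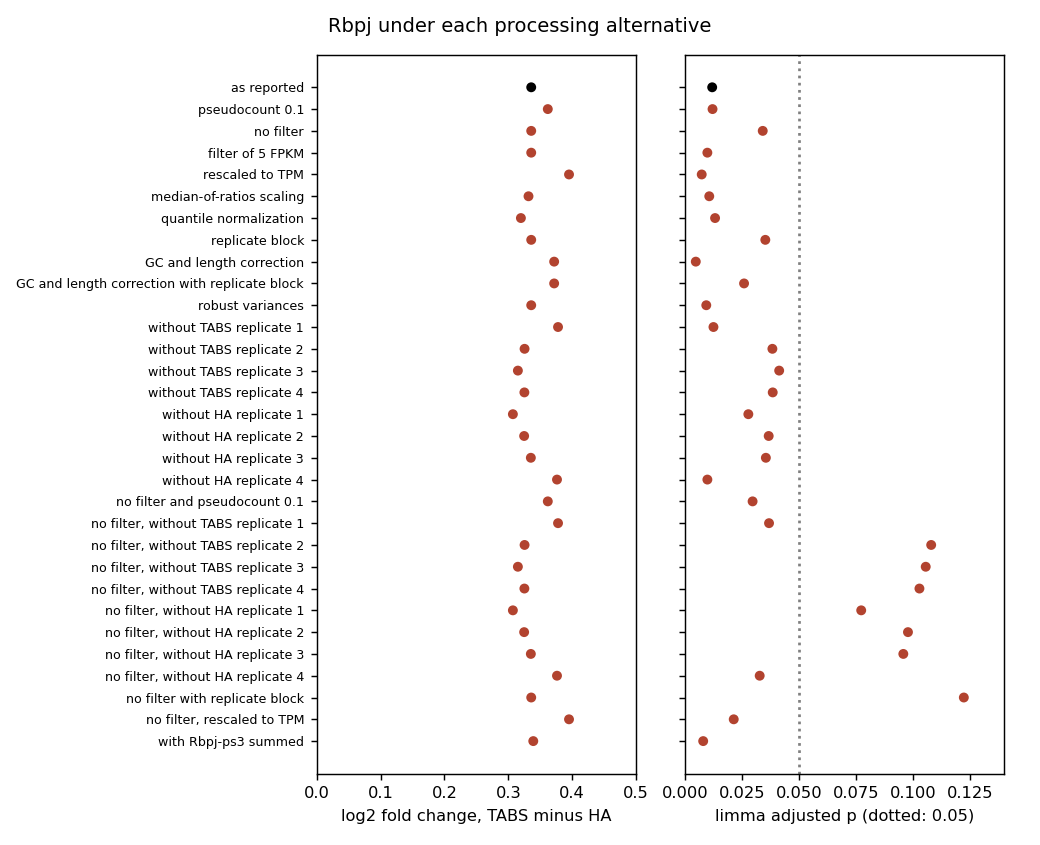
Log2 fold change of Rbpj, TABS minus HA (left), and its limma adjusted p (right) as reported (black) and under 30 alternatives (red), with 1 row for each. All estimates lie between 0.31 and 0.40, and 7 p-values, all from fits with no filter, lie right of the dotted line at 0.05.

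Before a start of Rbpj, the letters bound by its own protein can be looked for. The motif TGGGAA, the core of the Rbpj site, was searched on both strands in the RefSeq promoter windows of GRCm38.p6, which run from 250 bases before to 50 after each gene's start. It occurred in 8397 of 32851 windows (25.6%), and in 2 of the 9 windows held for 7 of the 10 genes, both of them of Rbpj. These 2 windows overlap and share a match, and the first holds another, which is shown. The printed bases, chr5:53590096-53590213 on the plus strand, lie just before the first exon of the transcript Rbpj-201 and inside the gene, since other Rbpj transcripts start further upstream. The match is in capitals.
Rbpj upstream: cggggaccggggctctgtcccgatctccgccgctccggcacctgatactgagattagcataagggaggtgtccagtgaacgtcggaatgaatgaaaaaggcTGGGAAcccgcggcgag
A match describes these letters and is not evidence of binding.

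The target genes were low or absent. Hes1 (ENSMUSG00000022528, chromosome 16, 30064384 to 30067796) encodes a basic helix-loop-helix repressor, the best known direct target of Notch in many tissues, though other pathways drive it too. It measured 1.06, 0.749, 1.13 and 0.835 FPKM in TABS and 0.479, 0.322, 0.489 and 0.518 FPKM in HA. All TABS libraries lay above all HA libraries, and the means of 0.944 ± 0.182 and 0.452 ± 0.088 FPKM (SD, n = 4) differed 2.09-fold. Among genes under the filter with a mean of at least 0.1 FPKM, 3.1% lay wholly above in TABS and 7.69% did not overlap in either direction. Over all 16921 genes under the filter and above 0 these shares were 1.35% and 3.18%. Hes1 reached 1 FPKM in 2 libraries and was therefore not in the main test. Without the filter its log2 fold change was 0.42 ± 0.08 SE (limma adjusted p = 0.0463), where 1.92% of all genes and 0.449% of those under the main filter passed. In the same fit with any single library left out it did not pass (adjusted p from 0.0614 to 0.128), while its log2 fold change stayed between 0.37 and 0.47. These are the fits in which Rbpj was lost for 6 of the 8 libraries. It did not pass with a pseudocount of 0.1 either (log2 fold change 0.92, adjusted p = 0.0512), and passed after rescaling to TPM (0.0362). With the pseudocount of 0.1, 1.81% of all genes and 0.307% of those under the main filter passed. If a step in the low values is 1 fragment, the Hes1 values amount to 27 to 36 fragments per TABS library and 10 to 20 per HA library.

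Hey1 (ENSMUSG00000040289, chromosome 3, 8663359 to 8667256) and Heyl (ENSMUSG00000032744, chromosome 4, 123233556 to 123249875), repressors related to Hes1, were listed at 0 in every library of both groups. The same held for Hey2 and for Nrarp, which encodes a feedback inhibitor that binds the receptor's intracellular part. Of the 2582 exon bases of Nrarp, 2051 are shared with the antisense gene Gm38287, also at 0. The use of strand in the counting is not stated, so the 0 of Nrarp is less certain. Hes5, another direct target, was above 0 in TABS 1 alone, at 0.065 FPKM. Hes7 lay between 0.044 and 0.136 FPKM over the 8 libraries, and Hes2 and Hes3 did not exceed 0.036 and 0.039. The exception was Hes6, a family member known to counteract Hes1, with a mean of 8.99 ± 0.63 FPKM over the TABS libraries and 8.44 ± 0.68 over HA (SD, n = 4). It did not pass the test (log2 fold change 0.08, 95% interval -0.07 to 0.23, limma adjusted p = 0.485).

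The rest of the pathway was read from a list of 89 other genes in 10 roles, of which 72 passed the filter. Of these, 6 rose and 3 fell in TABS, 12.5% against 7.38% of all tested genes, with a median log2 fold change of 0.05 against 0.0057 over all. The 6 became 3 without TABS 1 or HA 2, and 2 without TABS 2, TABS 3, TABS 4 or HA 3. In those fits 3 or 4 of the 72 were lower, and 3.68% to 4.59% of all tested genes passed. Rescaling to TPM gave 11 higher and 3 lower (10.2% of all genes passed there), the GC and length correction 3 and 4 (8.32%), and the replicate block 0 and 3 (2.04%). The median log2 fold change of the 72 moved as well. It was 0.0037 against 0.0016 over all with the GC and length correction, and 0.09 against 0.04 after rescaling to TPM. Across 11277 tested genes, which are not independent replicates, log2 fold change and GC content had a Spearman correlation of 0.35.

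**Figure D4:**
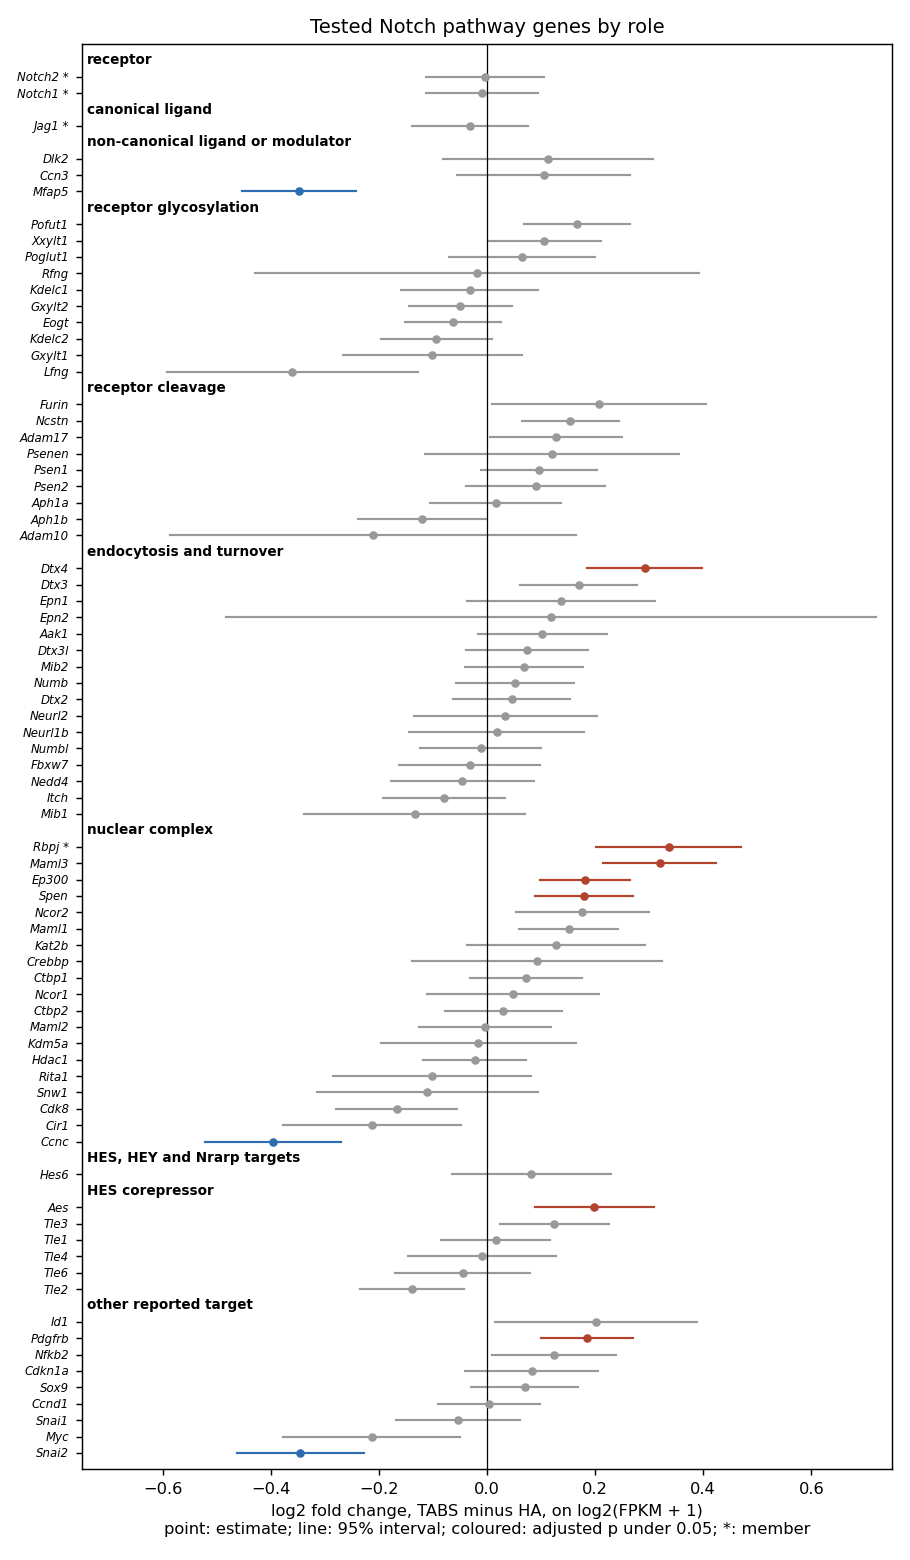
Log2 fold change (TABS minus HA, on log2(FPKM + 1)) with its 95% interval for the 76 tested Notch pathway genes, grouped by role; genes with an adjusted p under 0.05 are red where higher and blue where lower in TABS, and asterisks mark Notch1, Notch2, Jag1 and Rbpj. The nuclear genes hold 4 of the 7 red points, and Notch1, Notch2 and Jag1 lie close to 0.

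Of the 19 genes of the nuclear complex, all tested, 4 rose (Rbpj among them) and 1 fell, beside 7.38% called over all genes. Maml3, a Mastermind coactivator that binds the Rbpj and Notch pair, rose from 1.52 ± 0.09 to 2.15 ± 0.07 FPKM (SD, n = 4, log2 fold change 0.32, limma adjusted p = 0.00476). Its TABS libraries read 2.19, 2.08, 2.09 and 2.22 FPKM and its HA libraries 1.48, 1.62, 1.57 and 1.42. Ep300, the histone acetyltransferase recruited by Mastermind, rose from 6.05 ± 0.13 to 6.99 ± 0.05 FPKM (0.18, limma adjusted p = 0.0203). Spen, a corepressor partner of Rbpj, rose from 3.54 ± 0.10 to 4.14 ± 0.07 FPKM (0.18, limma adjusted p = 0.0296). Activating and repressing partners thus both stand among the genes that rose. Ccnc, the cyclin of the CDK8 module that marks the intracellular domain for turnover, fell from 3.10 ± 0.26 to 2.11 ± 0.08 FPKM (-0.40, limma adjusted p = 0.00406). It shares 276 of 5115 exon bases with Tstd3, a gene on the opposite strand that averaged 6.34 FPKM over the 8 libraries.

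Several of these calls depended on the setting. That on Ep300 was lost without any TABS library, HA 2 or HA 3 (adjusted p up to 0.0649), and that on Spen without any library except HA 4 (up to 0.0861). With the replicate block, limma adjusted p became 0.0593 for Maml3, 0.118 for Ep300 and 0.140 for Spen. Rbpj (0.0353) and Ccnc (0.0342) kept their calls there. That block lowered the share passing over all tested genes from 7.38% to 2.04%, so such losses were common. The GC and length correction also moved the log2 fold changes, of Ep300 to 0.10 (limma adjusted p = 0.0677), of Spen to 0.05 (0.379) and of Ccnc to -0.22 (0.169). With the correction and the block together, Rbpj alone of the 5 passed (0.026).

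Upstream of the nucleus the calls were on Mfap5 and Dtx4. Mfap5, a microfibril protein reported to bind Jag1 and Notch1, fell from 1.57 ± 0.05 to 1.02 ± 0.06 FPKM (SD, n = 4, log2 fold change -0.35, limma adjusted p = 0.00342). This call was kept in all 18 alternatives, also with the GC and length correction and the block together (0.026). Mfap5 passed the filter through HA, since TABS 2 (0.987 FPKM) and TABS 3 (0.956) lay under 1 FPKM. The other tested non-canonical ligand genes were Ccn3, at 22.04 ± 1.18 and 20.5 ± 2.01 FPKM in TABS and HA (limma adjusted p = 0.401), and Dlk2, at 2.54 ± 0.12 and 2.29 ± 0.44 (0.460). Dtx4, a Deltex ubiquitin ligase that acts on the receptor, rose from 3.07 ± 0.14 to 3.99 ± 0.18 FPKM (0.29, limma adjusted p = 0.00752, or 0.0562 with the replicate block), the only call among 16 tested genes of endocytosis and turnover. Its relative Dtx3 averaged 19.7 ± 1.197 FPKM with TABS and 17.4 ± 0.44 with HA (limma adjusted p = 0.0666, or 0.0268 after rescaling to TPM), and the kinase gene Aak1 at 10.2 ± 0.29 and 9.46 ± 0.68 (0.277).

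Of 10 tested genes that glycosylate the receptor, 0 passed limma's test, against 7.38% of all tested genes. At an unadjusted p under 0.05, 3 did. No share over all tested genes was computed at that threshold, so the 3 cannot be read as more than elsewhere. The smallest p belonged to Pofut1, which adds O-fucose to the receptor and averaged 6.39 ± 0.12 FPKM with TABS and 5.59 ± 0.27 with HA (log2 fold change 0.17, limma adjusted p = 0.0518). It passed with a filter of 5 FPKM (0.0484) and after rescaling to TPM (0.023). Lfng, the Fringe enzyme that extends that fucose and shifts the receptor from Jagged towards Delta-like ligands, stood at 2.86 ± 0.38 and 3.98 ± 0.65 FPKM (-0.36, limma adjusted p = 0.0666). Lfng passed without HA 3 and after the GC and length correction (0.0191). Xxylt1, a xylosyltransferase gene, was at 14.1 ± 0.55 and 13.0 ± 0.58 FPKM (0.197).

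Of 9 tested genes that cleave it, 0 passed limma's test either. At an unadjusted p under 0.05, 4 did, again with no share over all tested genes to set beside them. Ncstn, the gamma-secretase subunit nicastrin, averaged 43.9 ± 0.79 FPKM with TABS and 39.4 ± 1.49 with HA (log2 fold change 0.15, limma adjusted p = 0.0503), and passed in 5 of 19 alternatives, with adjusted p from 0.0166 (TPM) to 0.0444 (without HA 1). Adam17 was at 6.04 ± 0.19 and 5.45 ± 0.41 FPKM (limma adjusted p = 0.186) and the convertase gene Furin at 21.0 ± 1.48 and 18.2 ± 2.37 (0.189).

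Downstream, Aes, a truncated relative of the Groucho corepressors that Hes proteins recruit, rose from 95.7 ± 4.37 to 110 ± 4.81 FPKM (log2 fold change 0.20, limma adjusted p = 0.043). This call was lost without any library except HA 1 (up to 0.119) and with median-of-ratios scaling (0.0587), no filter (0.0833), the block (0.129) or the GC and length correction (0.0569). The full-length Groucho genes Tle2 (5.85 ± 0.19 and 6.54 ± 0.23 FPKM, adjusted p = 0.0834) and Tle3 (3.92 ± 0.11 and 3.52 ± 0.17, adjusted p = 0.131) did not pass limma's test. Tle2 passed with the GC and length correction (log2 fold change -0.22, adjusted p = 0.0348). Among 9 broader targets, which many other pathways also drive, Pdgfrb, a platelet-derived growth factor receptor gene, rose from 63.5 ± 2.14 to 72.3 ± 0.76 FPKM (0.18, limma adjusted p = 0.0214), a call lost without any TABS library or HA 3 (up to 0.0689), with the block (0.113) and with the GC and length correction (log2 fold change 0.10, 0.0541). Snai2, which encodes the repressor Slug, fell from 9.27 ± 0.38 to 7.09 ± 0.46 FPKM (-0.35, limma adjusted p = 0.00537), a call lost with the correction and the block together (-0.27, 0.0589). Myc stood at 8.80 ± 0.99 and 10.3 ± 0.58 FPKM (-0.21, limma adjusted p = 0.112) and passed without TABS 1 (0.0362).

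The protein-coding genes whose values over the 8 libraries ran most like those of Rbpj were Irf2bpl, Magi1, Wasf1, Extl3 and Foxo3. Likeness was the root-mean-square distance between log2(FPKM + 1) profiles scaled to mean 0 and SD 1, from 0.174 for Irf2bpl to 0.232 for Foxo3. Irf2bpl read 9.48, 9.96, 10.2 and 9.95 FPKM in TABS and 7.66, 8.33, 8.32 and 9.01 FPKM in HA. These genes were picked from all tested ones for that likeness, so it is a description only.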

How the data were processed

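RNA was sequenced from 8 libraries, 4 per scaffold. The authors deposited 1 table of FPKM per gene and library. The submitters' processing notes name fastp, STAR, DESeq2 and the build GRCm38, without versions or roles. Neither the program behind the FPKM values nor its use of strand is stated, so reads of overlapping antisense genes cannot be told apart. The columns carry the letters H and L, which the labels' library names tie to TABS and HA in that order. The letters are not explained, no gene serves as a check of the scaffold, and every direction given here rests on those labels.

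Of 55335 identifiers, 55154 were found in GENCODE M21. Read totals were absent. Low values followed steps, and if 1 step is 1 fragment, 1 FPKM over 1 kilobase amounted to 18.2 to 25.9 fragments. Only 15.9% to 22.5% of low values lay within 0.02 of a whole step, so counts were not rebuilt or tested.

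The main test was limma 3.58.1 (R 4.3.3) with a variance trend, two-sided, no block, on log2 values with a pseudocount of 1, which understates changes of low genes. Genes needed at least 1 FPKM in at least 4 libraries, and p-values were adjusted by Benjamini-Hochberg over all 11280 such genes with a threshold of 0.05. The fit was tested on simulated data. Alternatives were a pseudocount of 0.1, no filter, a filter of 5 FPKM, TPM, median-of-ratios and quantile scaling, a replicate block, a correction for GC content and length, robust variances, and leaving out each library. Combining no filter with other choices, and summing Rbpj with its copy, were chosen after seeing the data.

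The 10 genes, the pathway list and the markers were chosen with earlier results of these data known. Named were the 10 genes, all other receptors, canonical ligands and HES, HEY or Nrarp genes, each pathway gene that passed, the 3 genes per role with the smallest adjusted p, and the 5 genes most like the member with the smallest adjusted p. Rbpj-ps3 and Rbpjl were added after their values were seen.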

Additional observations from a re-analysis of the deposited data

Results flagged for a closer look

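In groups of 4 libraries, a value was singled out when its gap to the nearest other library took a larger part of the group's range than Dixon's test allows at the 95% level. Of 68 groups examined over the named genes, 2 met this, and chance alone gives about 1 in 20. Both were in TABS 3. Lfng stood at 3.44 FPKM there and at 2.60 to 2.72 in the other TABS libraries, a gap of 0.853 of the range. Ccn3 stood at 23.8 FPKM there and at 21.3 to 21.7 in the others, a gap of 0.845 of the range.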

How the results depend on the processing

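Rbpj was the single call among the tested genes of the set in every alternative that kept the filter of 1 FPKM (4 tested) or raised it to 5 FPKM (3 tested). Without the filter on low FPKM Hes1 joined it, for 2 calls. With no filter and 1 library left out, Rbpj kept its call without TABS 1 or HA 4 and lost it without any of the other 6. The 9 calls among the other 72 pathway genes became 14 after rescaling to TPM, 3 with the replicate number as a block, 1 with the GC and length correction and the block together, and 5 to 9 with 1 library left out. The 833 calls over all genes became 542 with no filter, 230 with the block, 315 with the correction and the block, and 415 to 718 with 1 library left out. The share of calls that were higher in TABS was 60.7%, against 79.3% after rescaling to TPM, 57.1% with median-of-ratios scaling, 51.4% with the GC and length correction and 48.9% with the correction and the block. The replicate numbers gave no pairing: same-numbered libraries deviated together with correlations of -0.10 to 0.10 across genes, and not every library correlated best with its own number. Notch1, Notch2 and Jag1 passed in no alternative. Their lowest adjusted p-values, 0.0815, 0.173 and 0.315, came with the GC and length correction (log2 fold changes -0.13, -0.10 and -0.08). Depth limits Dll1 and Jag2, which stood for at most 7 fragments per library if 1 step is 1 fragment.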
